A study of Sus scrofa with 63 samples.

Results

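The genes described here move ions and water across the wall of the small intestine, and they were followed in the jejunum of pig fetuses close to term. They were the anion channel CFTR, the chloride and bicarbonate exchangers SLC26A3 and SLC26A6, the sodium and proton exchangers SLC9A2 and SLC9A3, the cotransporter SLC12A2, the sodium pump subunit ATP1B1, and the signal peptides GUCA2A and GUCA2B. Every probe whose gene name in the scanner files was one of these symbols, in any letter case, was taken as a member. This gave 23 probes with 18 different sequences for the 9 genes, among 60305 probes on the array, and all 23 were among the 40515 probes that were tested. ATP1B1 had 5 probes, SLC26A6 had 4, CFTR and GUCA2B had 3 each, and GUCA2A, SLC26A3 and SLC9A2 had 2 each. SLC12A2 and SLC9A3 had 1 probe each.

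Jejunum RNA of 63 male fetuses was hybridised to one-colour Agilent arrays, with 1 fetus per array. LW fetuses had a Large White sire and a Large White sow, and MS fetuses had a Meishan sire and a Meishan sow. MSLW fetuses came from a Meishan sire and a Large White sow, and LWMS fetuses from a Large White sire and a Meishan sow. At day 90 of gestation there were 9 LW, 8 MSLW, 9 LWMS and 6 MS fetuses, and at day 110 there were 9 LW, 6 MSLW, 9 LWMS and 7 MS fetuses. The labels name no treatment for any group, the fetuses were delivered by caesarean section, and the study had chosen males close to the mean weight of their litter. The RNA was taken from the wall of the jejunum and not from sorted cells, so fewer cells of a type and less RNA per cell cannot be told apart. The sow of each fetus is not a term in the tests, so litter mates count as independent and p-values measure the spread between these fetuses. Litter mates share their age and the breed of their sow, so p-values for both may be too small.

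In the small intestine, fluid is secreted when chloride enters the epithelial cell from the blood side, carried by SLC12A2 together with sodium and potassium, and leaves into the lumen through CFTR. The sodium gradient that drives this uptake is kept up by the sodium pump, of which ATP1B1 is the beta subunit. Absorption runs the other way, with SLC9A2 and SLC9A3 exchanging luminal sodium for protons while SLC26A3 and SLC26A6 exchange luminal chloride for bicarbonate. Guanylin (GUCA2A) and uroguanylin (GUCA2B) are small peptides that the epithelium releases. They bind the receptor GUCY2C, raise cGMP in the cell, open CFTR and inhibit sodium and proton exchange.

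Levels are log2 values of the background-corrected intensity, set against the 75th percentile of the same array. A level is compared only between fetuses and never between probes. The brightest probe stands for each gene. Differences come from limma fits to the means of the 8 groups, and Benjamini-Hochberg adjustment ran over all 40515 probes. Each fit takes the same spread for all groups of a probe, so where groups differ in spread an SE can be too small or too large. A change with age, or between purebred MS and LW fetuses, counted as a call when its adjusted p was 0.01 or less and its log2 difference was 0.5 or more in size. The breed by age term needed the same adjusted p with no minimum size. For the sow's breed, the sire's breed and the sow by age term, an adjusted p under 0.05 was required.

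Before the results, the arrays were checked. Each array had between 51.2 and 87.6% of probes well above background, and its mean correlation with the other arrays of its group lay between 0.90 and 0.98. The array of fetus 632 (MS, day 110) was the lowest, and those of 484 (LW, day 90) and 469 (LW, day 110) came next. The 6 enterocyte markers, among them the brush border enzymes LCT and ALPI, were each well above background on 62 or 63 arrays. Their list mean lay between 3.40 and 6.37 in all fetuses but 2, and it was -0.44 in fetus 632 and 1.90 in fetus 575 (LW, day 110). The second departure was in the markers of stomach or duodenum. TFF2, a mucosal peptide of the stomach and the first part of the duodenum, had medians between -2.35 and -1.62 in the 4 groups of day 90. Its highest value at day 90 was 2.42, in LW. At day 110 its medians were 7.03 in LW, 1.80 in MSLW, -0.76 in LWMS and -0.81 in MS, and the highest value of each group lay between 7.35 and 9.46. The mean of the tested markers of that list (TFF1, TFF2, PGC and PDX1, with GKN1 below the detection filter) was above 0 in none of the day 90 fetuses. At day 110 it was above 0 in 6 of 9 LW, 4 of 6 MSLW, 4 of 9 LWMS and 2 of 7 MS fetuses. The limit of 0 was chosen after the values had been seen. Whether the sampled stretch of gut differed between fetuses was not tested, so each change with age given here is one between the tissue samples as taken. These markers moved with several results below, where their values are given. Of the other lists, 3 of 4 tested goblet cell markers and 3 of 6 enterocyte markers were called higher at day 110 with 1 enterocyte marker lower, while 3 of 3 tested blood markers and 1 of 3 tested ileum markers were called lower. Lower calls were also made for 2 of 6 fibroblast, 2 of 5 nerve and glia, 1 of 6 smooth muscle and 1 of 5 crypt markers, and 1 of 6 immune markers was called higher. The correlations of these lists with the members are given further on.

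Across the 8 groups, 13 of the 23 member probes differed by the F test at an adjusted p under 0.01, in a background of 28.7% of all probes tested. They came from 7 genes, and the probes of SLC12A2 and SLC9A3 were not among them. Averaged over genotypes, 13 of the 23 member probes changed with age, 6 of them upward and 7 downward, where 13.8% of all probes tested were called. Of the 7, 1 was the dimmer SLC26A3 probe, which passed the detection filter through groups of day 90 alone, where it was high. It is included in this count, in the F test and in the counts in LW and LWMS given further on, and it adds no support to any of them. Each of these counts therefore rests on 1 probe fewer than printed. Probes of the same sequence are counted separately, and the 13 calls for age came from 5 genes. The median change was 0.18 over the member probes and -0.02 over all probes tested. GUCA2A, GUCA2B and SLC26A3 fell from day 90 to day 110, and SLC9A2 and SLC26A6 rose. CFTR, ATP1B1, SLC12A2 and SLC9A3 were not called. The GUCA2A call was lost with the stomach or duodenum markers as a covariate, where the change was -0.38 at an adjusted p of 0.089. None of these 5 calls turned its direction under any alternative, and the direction was the same on each of the 8 slides, except that GUCA2A was higher at day 110 on 1 slide.

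**Figure D1:**
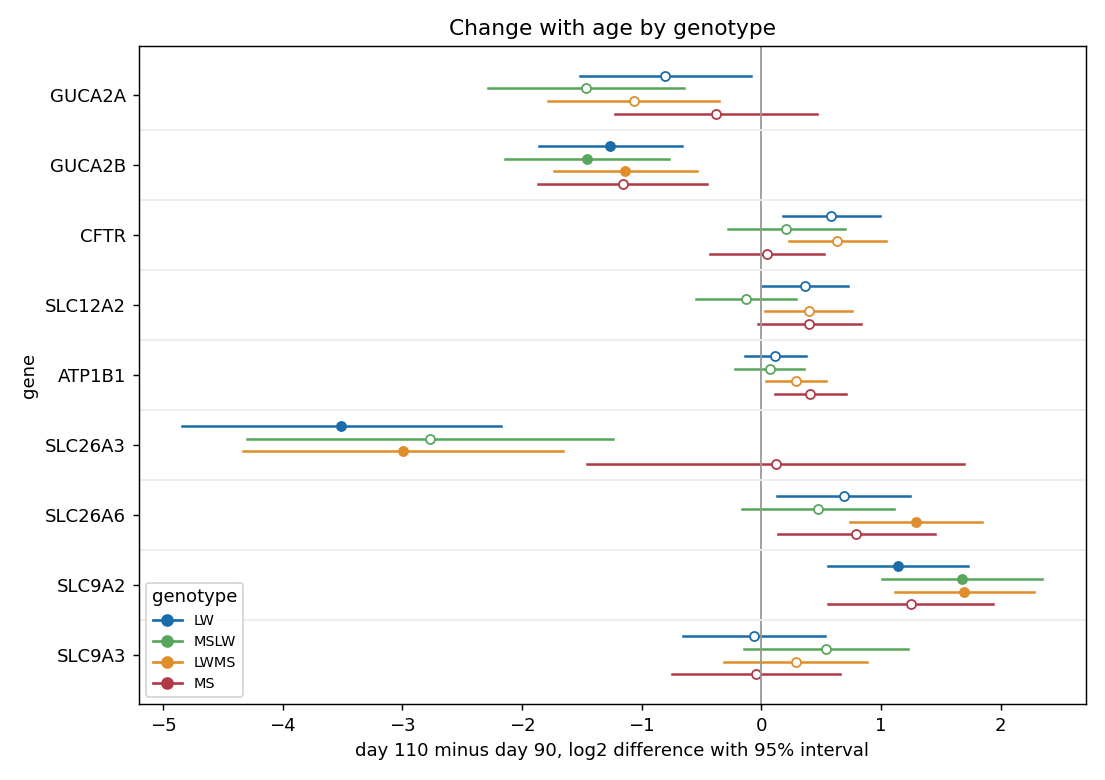
Change with age (day 110 minus day 90, log2) of the 9 genes within each genotype, with 95% intervals, and filled symbols where the change was called. GUCA2B lies below 0 and SLC9A2 above 0 in all 4 genotypes, and SLC26A3 lies near -3 in 3 genotypes and at 0.12 in MS, where it becomes -0.41 without fetus 632.

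The guanylin peptides fell together. The 3 probes for GUCA2B share 1 sequence of 60 bases, 5′ to 3′, which is shown because the fall of GUCA2B was called in 3 of the 4 genotypes.
GUCA2B: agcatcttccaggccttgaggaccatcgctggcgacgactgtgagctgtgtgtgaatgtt
GUCA2A and GUCA2B are neighbours in the Sscrofa11.1 annotation of RefSeq. Within an array, these GUCA2B probes of identical sequence differed by a median of 0.09.

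In LW fetuses, GUCA2B ran from -0.12 to 2.18 with a median of 0.70 at day 90 and from -1.78 to 0.72 with a median of -0.82 at day 110. In MS fetuses it ran from 1.13 to 1.71 (median 1.41) at day 90 and from -1.13 to 0.81 (median 0.59) at day 110. All 7 MS fetuses of day 110 lay under the lowest of day 90, and in LW 6 of 9 did. In LWMS fetuses GUCA2B ran from 0.70 to 1.90 (median 1.33) and then from -0.51 to 1.17 (median 0.00). In MSLW fetuses it ran from 0.61 to 2.49 (median 1.32) and then from -1.02 to 0.25 (median 0.17), again with no overlap between the ages. The MS and MSLW groups held fewer fetuses than the LW groups, which makes a lack of overlap easier to reach. The share of all probes without overlap is not given here.

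Averaged over genotypes, GUCA2B decreased by 1.25 ± 0.16 (SE) on the log2 scale, which is 2.39-fold, at an adjusted p of 5.31e-09 in limma. The other 2 probes gave -1.28 and -1.34. Within genotypes the fall was called in LW (-1.26 ± 0.30), LWMS (-1.14 ± 0.30) and MSLW (-1.46 ± 0.34). In MS it was -1.16 ± 0.35 at an adjusted p of 0.031, which missed the threshold of 0.01. The difference of the change between MS and LW was 0.10 with a 95% interval from -0.82 to 1.03. Within slides the change lay between -1.91 and -0.68. The LW call was lost without fetus 484 or 575, the LWMS call without 622, 633 or 823, and the MSLW call without 560, with adjusted p-values of up to 0.010, 0.012 and 0.013. With the stomach or duodenum markers as a covariate, all 3 calls were lost, at -0.67 in LW (adjusted p of 0.061), -0.64 in LWMS (0.042) and -0.88 in MSLW (0.018). Median centring also lost the LWMS call (0.018), and the LW call was lost with purebred fetuses alone (0.015) and without fetuses 484 and 469 (0.011).

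GUCA2A, guanylin itself, showed the same direction with a wider spread. In LW fetuses it ran from 1.49 to 4.18 (median 2.76) at day 90 and from 0.40 to 3.02 (median 1.75) at day 110. In MS fetuses it ran from 3.02 to 4.10 (median 3.63) and then from 1.66 to 5.0 (median 3.26). The highest MS value of day 110 belonged to fetus 632, and all 4 genotypes overlapped between the ages. In LWMS fetuses the medians were 3.79 and 2.10, and in MSLW fetuses 3.52 and 2.54.

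Averaged over genotypes, GUCA2A decreased by 0.93 ± 0.19 on the log2 scale (1.90-fold) at an adjusted p of 9.39e-05, the call that was lost with the marker covariate (-0.38). No single genotype reached the threshold. The estimates were -0.80 in LW, -0.38 in MS, -1.07 in LWMS and -1.47 in MSLW, with adjusted p-values of 0.15, 0.67, 0.027 and 0.012. The MS estimate was -0.68 without fetus 632 and -0.12 without fetus 623. With the marker covariate the estimates were -0.13 in LW, -0.06 in MS, -0.50 in LWMS and -0.81 in MSLW, none of them called. MSLW was called with the authors' values (0.0070), quantile normalization (0.0066), the filter on all arrays (0.0092), without fetuses 484 and 469 (0.0088) and without 632, 484 and 469 (0.0045), as well as without any 1 of 6 fetuses, and LWMS was called with array weights (0.0096). The second GUCA2A probe gave -0.92 over genotypes.

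**Figure D2:**
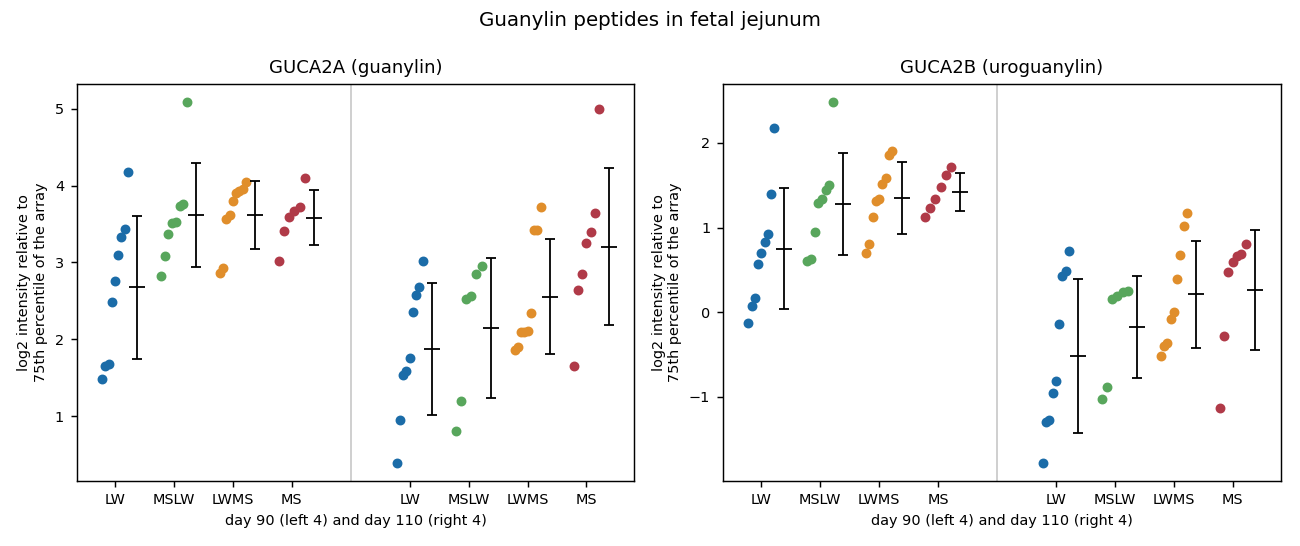
Level of GUCA2A and GUCA2B (log2 intensity against the 75th percentile of the array) in each fetus, by genotype at day 90 and day 110, with bars for mean ± SD. The day 110 points of GUCA2B lie under all day 90 points in MS, where the fall was not called, and in MSLW. GUCA2A reaches 5.0 in 1 MS fetus of day 110.

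The receptor side was listed among 88 other genes of epithelial ion and acid transport, of which 75 were on the array and 55 were tested. GUCY2C, the guanylin receptor, was not called, with a change with age of 0.20 ± 0.12. PRKG2, the cGMP-dependent kinase that acts on CFTR, rose by 0.71. It was the 1 gene called of the 3 tested in the group of receptor and cGMP signalling genes.

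The largest change with age among the members was in SLC26A3, the exchanger whose loss causes congenital chloride diarrhoea. Its 2 probes differ in brightness, and the dimmer one is printed since it was well above background in few fetuses of day 110.
SLC26A3, dimmer probe: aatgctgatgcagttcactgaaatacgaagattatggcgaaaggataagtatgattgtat
With the brighter probe, 32 of 32 fetuses at day 90 and 24 of 31 at day 110 were well above background. Of the 7 fetuses not well above background, 5 were among the 9 LW fetuses. With the dimmer probe the counts were 26 of 32 and 7 of 31.

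In LW fetuses the brighter SLC26A3 probe ran from -1.72 to 0.08 with a median of -0.56 at day 90 and from -6.67 to -0.72 with a median of -4.42 at day 110. In LWMS fetuses it ran from -1.37 to 0.10 (median -0.53) and then from -6.91 to -0.46 (median -3.31). In both genotypes the lowest fetuses of day 110 lay far below the day 90 range and the highest lay within it. The SD was 0.65 at day 90 and 2.20 at day 110 in LW, and 0.45 and 1.95 in LWMS. Since 4 of 9 LW and 8 of 9 LWMS fetuses of day 110 were well above background, the low end and the SD in LW are uncertain. In MSLW fetuses the probe ran from -3.00 to 0.24 (median -1.22) and then from -5.68 to -2.77 (median -3.88). In MS fetuses it ran from -2.63 to -0.25 (median -1.74) at day 90 and from -3.22 to 1.79 (median -1.95) at day 110. Ages overlapped in all 4 genotypes, and 7 of 9 LW, 8 of 9 LWMS, 5 of 6 MSLW and 2 of 7 MS fetuses of day 110 lay below the lowest of their genotype at day 90.

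Averaged over genotypes, SLC26A3 decreased by 2.29 ± 0.36 on the log2 scale (4.88-fold) at an adjusted p of 6.43e-07. Over 11 settings of the processing this change ran from -2.51 to -1.33. The average takes in day 110 arrays that were not well above background, so its fold is uncertain. The fall was called in LW (-3.51 ± 0.67) and in LWMS (-2.99 ± 0.67). With the marker covariate both calls were kept, at -2.35 in LW (adjusted p of 0.0045) and -2.02 in LWMS (0.0070). Over 12 settings of the processing the LW value ran from -4.02 to -2.03. The size of the fall in LW is uncertain, since it rests on 5 of 9 arrays of day 110 that were not well above background. The dimmer probe passed the filter through groups of day 90 alone, so its fitted falls add no support. In MSLW it was -2.77 ± 0.76 at an adjusted p of 0.011. That fall was called with the authors' values (0.0050), quantile normalization (0.0090), array weights (0.0018), without 632, 484 and 469 (0.0065) and without any 1 of 12 fetuses, while with the marker covariate it was -1.63 (0.078). With the dimmer probe 4 of 8 MSLW fetuses of day 90 and 0 of 6 of day 110 were well above background. In MS the change was 0.12 with a 95% interval from -1.45 to 1.70, and its sign turned without any 1 of 5 fetuses, with -0.41 without fetus 632, and with array weights (-0.47). On each of the 8 slides SLC26A3 was lower at day 110, with changes from -3.49 to -1.03.

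At day 110 SLC26A3 was 2.82 ± 0.71 higher in MS than in LW on the log2 scale at an adjusted p of 0.0051. The size is uncertain, since 4 of the 9 LW fetuses and 7 of the 7 MS fetuses were well above background. It was the 1 member probe of 23 called for MS against LW at that age, near the 4.99% of all probes called. The dimmer probe was well above background in 1 of 9 LW and 4 of 7 MS fetuses of day 110 and gives no value for this difference. At day 90 MS was lower by 0.81 ± 0.75, which was not called, and the breed by age term was 3.63 ± 1.03 at an adjusted p of 0.23. Thus the change of SLC26A3 with age was not shown to differ between the breeds by the adjusted test. The call was lost without any 1 of the LW fetuses 557, 559, 572 and 575 or of the MS fetuses 623 and 632. Fetus 632 had the highest SLC26A3 level of the MS fetuses and the lowest enterocyte marker mean. Without it the difference was 2.29 at an adjusted p of 0.025, and the fall in MSLW was then called at an adjusted p of 0.0062. Over the 63 fits that leave out 1 fetus, the difference ran from 2.29 to 3.26 and its adjusted p from 0.00076 to 0.025. Over the other alternatives it ran from 1.58 to 3.19, and 8 of 12 settings kept the call.

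**Figure D3:**
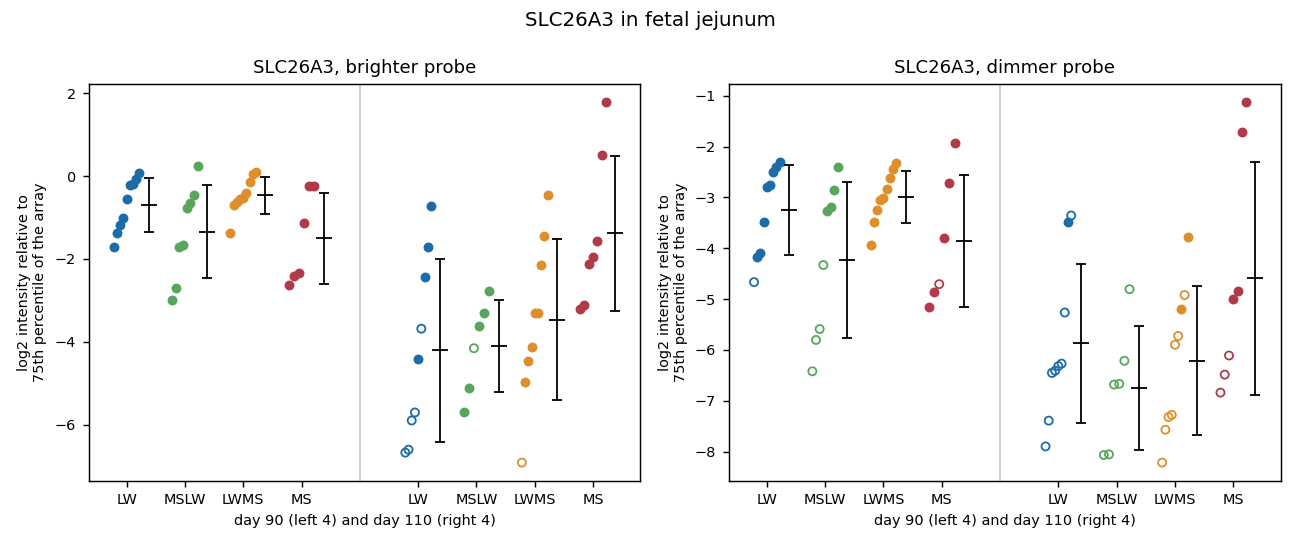
Level of SLC26A3 in each fetus with the brighter and the dimmer probe (log2 intensity against the 75th percentile of the array), filled where the spot was well above background and open where it was not, with mean ± SD. At day 110 most LW, LWMS and MSLW fetuses drop below the day 90 range, MS fetuses spread from -3.22 to 1.79 with the brighter probe, and open points fill the dimmer probe at day 110.

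SLC9A2, a sodium and proton exchanger of the apical membrane also called NHE2, had the largest rise with age among the representative probes of the 9 genes. Its 2 probes have different sequences.
SLC9A2, brighter probe: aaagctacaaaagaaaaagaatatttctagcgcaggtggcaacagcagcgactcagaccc
SLC9A2, dimmer probe: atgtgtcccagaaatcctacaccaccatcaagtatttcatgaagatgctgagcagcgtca
Both rose with age when genotypes were averaged, which is why both are shown.

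In LW fetuses SLC9A2 ran from -3.40 to -2.62 with a median of -2.83 at day 90 and from -3.41 to -0.40 with a median of -1.70 at day 110. In MS fetuses it ran from -2.63 to -2.07 (median -2.36) and then from -1.46 to -0.68 (median -1.13). The MS ranges did not overlap, and in LW 7 of 9 fetuses of day 110 lay above all LW fetuses of day 90. In LWMS fetuses it ran from -3.27 to -0.97 (median -2.66) and then from -2.16 to 0.47 (median -0.78). In MSLW fetuses it ran from -3.43 to -2.22 (median -2.72) and then from -1.90 to -0.13 (median -1.03), without overlap. Here too the MS and MSLW groups were smaller than the LW groups, and the share of all probes without overlap is not given.

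Averaged over genotypes, SLC9A2 rose by 1.44 ± 0.16 on the log2 scale (2.71-fold) at an adjusted p of 4.85e-11. The rise was called in LW (1.14 ± 0.29), LWMS (1.70 ± 0.29) and MSLW (1.68 ± 0.33). It was 1.25 ± 0.34 in MS, where the adjusted p of 0.015 missed the threshold, which it passed with array weights (0.0030) and without fetus 575 (0.0093). The dimmer probe was called in LWMS and over genotypes, and gave 0.94 in LW and 1.54 in MSLW without a call. Within slides the change lay between 0.65 and 2.06. The LW call was lost without any 1 of the fetuses 469, 500, 572, 670, 850 and 895, with an adjusted p of up to 0.022. It was also lost with median centring (0.013), without fetuses 484 and 469 (0.025), without 632, 484 and 469 (0.024), and with the marker covariate (0.90 at an adjusted p of 0.041).

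SLC26A6, which exchanges chloride for bicarbonate and also carries oxalate, rose less. It is read by 2 sequences, each present as 2 probes.
SLC26A6, brighter pair: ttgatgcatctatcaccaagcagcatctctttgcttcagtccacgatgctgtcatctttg
SLC26A6, dimmer pair: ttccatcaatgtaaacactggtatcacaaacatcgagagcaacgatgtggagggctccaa
The probes of a pair differed by a median of 0.09 within an array for the brighter and 0.23 for the dimmer sequence.

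In LW fetuses SLC26A6 ran from -3.40 to -1.84 (median -2.31) at day 90 and from -2.49 to -0.54 (median -2.09) at day 110. In LWMS fetuses it ran from -3.07 to -2.14 (median -2.66) and then from -2.69 to -0.76 (median -1.05). There 8 of 9 fetuses of day 110 lay above all of day 90, compared with 3 of 9 in LW. In MS fetuses it ran from -3.20 to -2.14 (median -2.31) and then from -2.80 to -0.27 (median -2.0). In MSLW fetuses it ran from -2.69 to -1.42 (median -2.41) and then from -2.32 to -1.21 (median -1.86). All 4 genotypes overlapped between ages.

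Averaged over genotypes, SLC26A6 rose by 0.81 ± 0.15 on the log2 scale (1.75-fold) at an adjusted p of 1.39e-05. The dimmer pair gave 0.57 and 0.66 and was called as well. Within genotypes the rise was called in LWMS (1.29 ± 0.28). The estimates of 0.69 in LW, 0.79 in MS and 0.47 in MSLW were not called, though MS was with array weights (0.0065). With the marker covariate they were called, at 1.21 in LW (adjusted p of 0.0002), 1.04 in MS (0.0053) and 0.98 in MSLW (0.0054).

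SLC9A3, the exchanger NHE3 that takes up most sodium from the lumen after birth, had a single dim probe that was well above background on 51 of 63 arrays. Its group medians lay between -4.76 and -4.14, and all pairs of ages overlapped. The change with age was 0.18 with a 95% interval from -0.14 to 0.50, and it was called in no comparison.

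CFTR, SLC12A2 and ATP1B1 were not called for age. CFTR differed by 0.37 ± 0.11 over genotypes at an adjusted p of 0.0065, but stayed under the minimum difference of 0.5. Within genotypes its change was 0.58 in LW, 0.05 in MS, 0.63 in LWMS and 0.21 in MSLW, none of them called. The MS change was 0.30 without fetus 632 and -0.09 without fetus 407, and its sign turned without any 1 of 4 fetuses. The MSLW change ran from 0.09 without fetus 899 to 0.32 without fetus 450. The LWMS change was called with median centring (0.77 at an adjusted p of 0.0055), array weights (0.0083), without fetus 632 (0.0059) and without 632, 484 and 469 (0.0029), and the LW change with array weights (0.0047). With the marker covariate the change over genotypes was 0.18 at an adjusted p of 0.26. CFTR ranged from -2.06 to -1.24 in LW at day 90 and from -1.43 to 0.04 at day 110, so that 6 of 9 fetuses lay above the day 90 range. In MS fetuses at day 110 it ran from -3.15, in fetus 632, to -0.82. SLC12A2, the sodium, potassium and chloride cotransporter of the basolateral membrane, changed by 0.26 ± 0.10 at an adjusted p of 0.031 and was not called. Its group medians lay between 3.31 and 3.93.

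ATP1B1 changed by 0.22 ± 0.07 with age, also under the minimum difference, and its other 4 probes gave 0.06 to 0.11 without a call. Its group medians lay between 4.33 and 4.91, with SDs of 0.15 to 0.35.

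**Figure D4:**
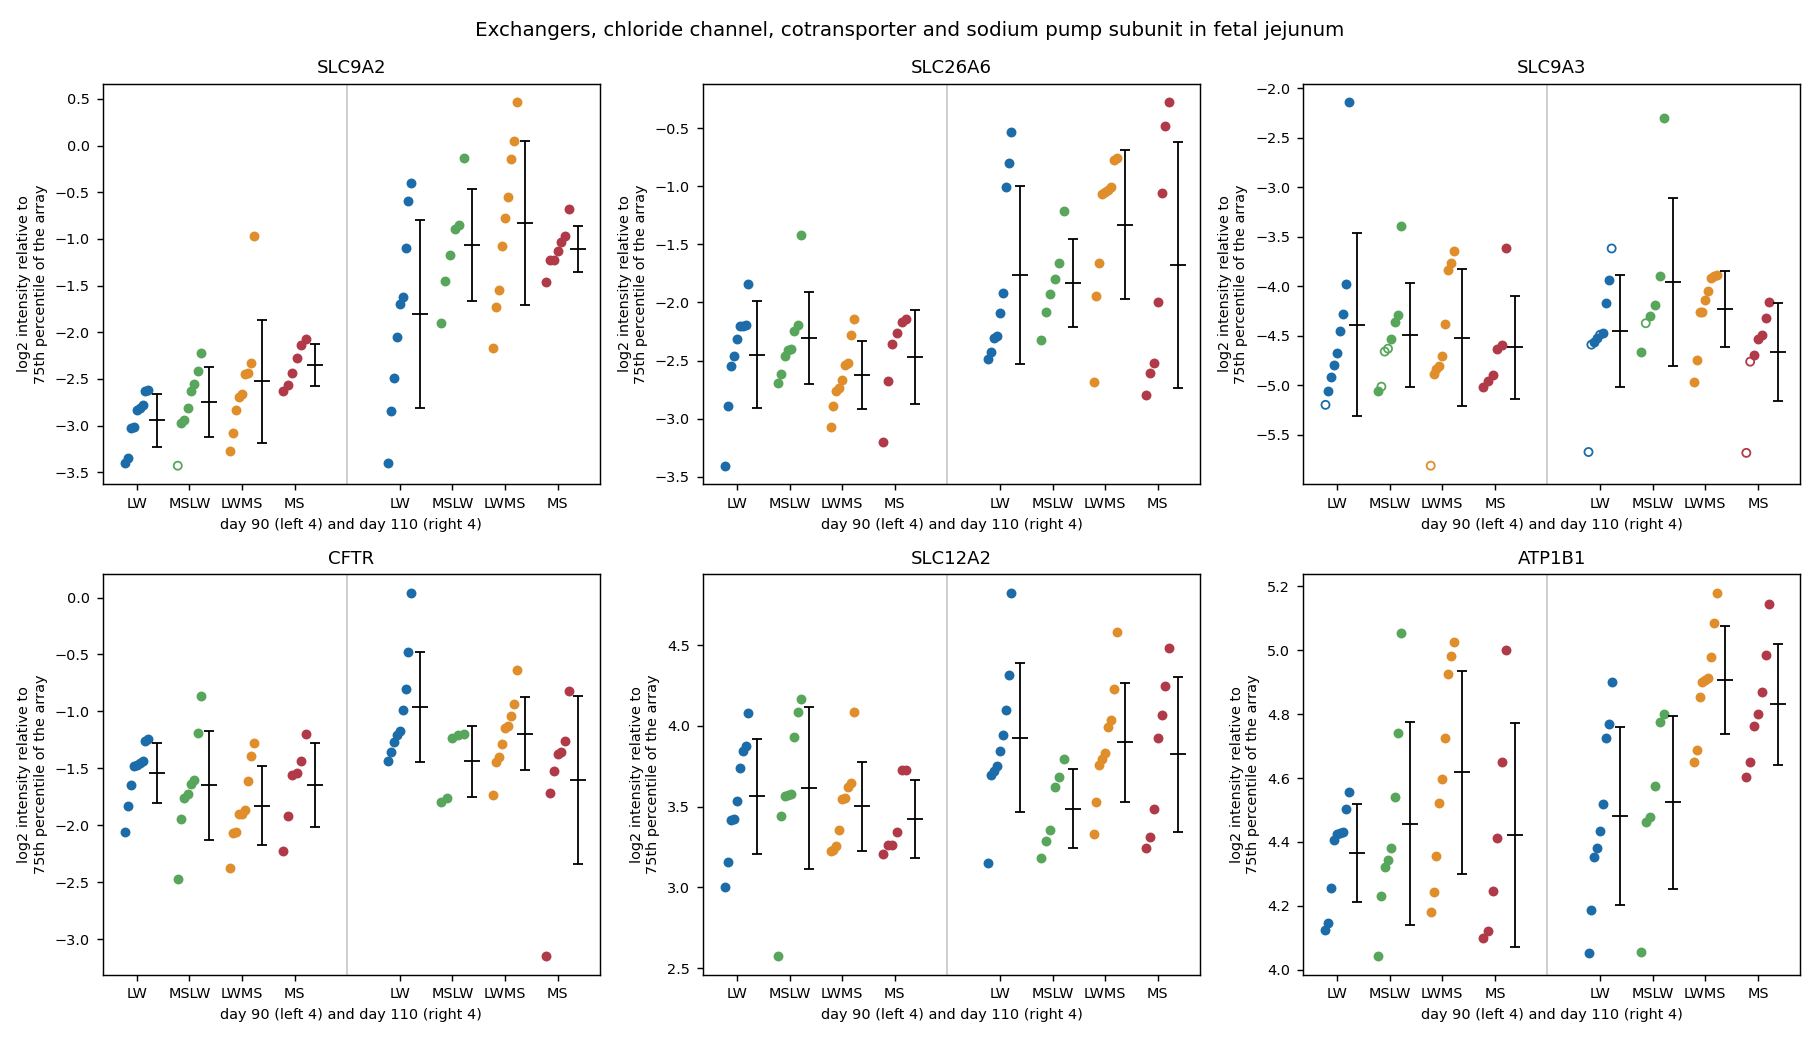
Levels of SLC9A2, SLC26A6, SLC9A3, CFTR, SLC12A2 and ATP1B1 in each fetus (log2 intensity against the 75th percentile of the array), filled where well above background, with mean ± SD. SLC9A2 is higher at day 110 than at day 90 without overlap in MS, where the rise was not called, and in MSLW. SLC9A3 groups share one range, and the CFTR value of -3.15 stands alone in MS at day 110.

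Counted within genotypes, the change with age was called for 6 of the 23 member probes in LW, in a background of 4.76% of all probes, and for 11 in LWMS, against 9.86%. Both counts include the dimmer SLC26A3 probe, which passed the filter through groups of day 90 alone, so each rests on 1 probe fewer than printed. The count was 4 in MSLW, against 5.43%, and 0 in MS, against 3.12%. In MS, limma gave 9 member probes at an unadjusted p under 0.05, against 20.5% of all probes, and limma with array weights called 4, against 10.6%. The breed by age interaction was called for 0 members, in a background of 0.0173%, with 1 member probe, the brighter of SLC26A3, at an unadjusted p under 0.05, against 6.61% of all probes.

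MS fetuses were compared with LW fetuses at each age. At day 90 no member probe was called, against 3.58% of all probes, and 4 of the 23 had an unadjusted p under 0.05, near the 18% of all probes that did. At day 110 SLC26A3 was the single call, as given above, and 15 member probes had an unadjusted p under 0.05, where 23.3% of all probes did. GUCA2A was 1.33 ± 0.38 higher in MS at an adjusted p of 0.015, above the threshold of 0.01, and 4 of 7 MS fetuses lay above all 9 LW fetuses. It was called with median centring (1.45, adjusted p of 0.0090), with array weights (1.61, 0.00082) and without fetus 623 or 852, and it was 0.94 (0.039) with the marker covariate. Without fetus 632 it was 1.03, and leaving out 1 fetus at a time gave adjusted p-values of up to 0.064. GUCA2B was 0.77 ± 0.32 higher in MS at day 110 at an adjusted p of 0.12, and was called with array weights (1.22, 0.0019). CFTR was lower in MS by 0.64 ± 0.22 at an adjusted p of 0.046 and was not called. Without fetus 632 that difference was -0.38, and leaving out 1 fetus at a time gave adjusted p-values of up to 0.20.

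The reciprocal crosses allow the breed of the sow to be set apart from that of the sire. All fetuses of a litter share the breed of their sow, and the sow is not a term in the fit. SEs and adjusted p-values for the breed of the sow may therefore be too small. With the breed of the sow, 11 of the 23 member probes were called, against 16% of all probes, and all 11 were higher in fetuses of MS sows. The median difference was 0.20 over the member probes and 0.02 over all probes tested. They were both GUCA2A probes, the 3 GUCA2B probes, all 5 ATP1B1 probes and the brighter SLC9A2 probe. GUCA2A was higher in fetuses of MS sows by 0.66 ± 0.19 (adjusted p of 0.014) and GUCA2B by 0.48 ± 0.16 (0.036). Fetuses of MS sows had higher GUCA2A on 7 of 8 slides, and higher GUCA2B on 6. The GUCA2A call held in all 63 fits that leave out 1 fetus, while the GUCA2B call was lost without any 1 of 10 fetuses, with an adjusted p of up to 0.064, and with no filter on dim probes (0.051). Among the marker lists, LGR5 (-0.46), KDR (-0.51) and UCHL1 (-0.32) were called lower with an MS sow, and CD163 (0.48), S100B (0.44) and KRT8 (0.21) higher. No marker of the enterocyte, goblet cell or stomach or duodenum lists was called for the sow, in a comparison that averages both ages. At day 110 the stomach or duodenum list mean was above 0 in 6 of 9 LW, 4 of 6 MSLW, 4 of 9 LWMS and 2 of 7 MS fetuses. A difference by sow at that age alone was not tested.

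ATP1B1 was higher by 0.24 ± 0.07 (adjusted p of 0.012) in fetuses of MS sows, on 8 of 8 slides. At day 110 its medians were 4.91 in LWMS and 4.80 in MS, compared with 4.44 in LW and 4.53 in MSLW, with overlapping ranges. The difference was 0.11 and not called after quantile normalization and with the authors' processed values. SLC9A2 was higher by 0.44 ± 0.16 at an adjusted p of 0.048, close to the threshold of 0.05. That call was lost without any 1 of 40 of the 63 fetuses. It was also lost with the slide as a block (0.34 at an adjusted p of 0.10), with normexp (0.072) and with no filter on dim probes (0.068). SLC26A3 was 0.88 ± 0.36 higher in fetuses of MS sows without a call (0.086), and was called with array weights (0.011).

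With the breed of the sire, 0 of the 23 member probes were called, against 6.95% of all probes, and limma gave 3 at an unadjusted p under 0.05, a share under the 18.9% of all probes. GUCA2A was 0.46 ± 0.19 higher with an MS sire at an adjusted p of 0.16, and was called with array weights (0.58, adjusted p of 0.015). The interaction of the breed of the sow with age was called for 0 member probes, against 0.388%, with 1 at an unadjusted p under 0.05, against 10.9% of all probes. For GUCA2A and GUCA2B, being called for the sow and not for the sire in the main fit does not show that the 2 differ, and that difference was not tested.

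The markers of stomach or duodenum moved with these genes at day 110. Of the 5 genes on the list 4 were tested and 3 were called higher at day 110, and their list mean ran from -4.15 to 5.0 among the day 110 fetuses. After group means were removed, the list mean was correlated with the members over all 63 fetuses, with adjustment over the 9 genes and 14 marker lists. GUCA2B had an r of -0.66 and a rho of -0.66 (permutation p of 1e-05 for both, the smallest that the permutations can give, adjusted 0.00042 and 0.00025), with an r of -0.08 at day 90, -0.83 at day 110 and -0.62 without the 2 fetuses farthest from the median. GUCA2A had an r of -0.62 and a rho of -0.60 (the same p-values), with -0.11 at day 90, -0.79 at day 110 and -0.59 without those 2 fetuses. SLC26A6 had an r of -0.65 and a rho of -0.68 (adjusted permutation p of 0.00063 and 0.00025), with -0.53 at day 90, -0.69 at day 110 and -0.59 without those 2. SLC26A3 had an r of -0.57 and a rho of -0.52 (0.0033 and 0.0020), with -0.25 at day 90, -0.61 at day 110 and -0.70 without those 2. With all day 110 fetuses together, these 4 genes were thus lower where the markers were higher. SLC12A2 and CFTR went the other way, with an r of 0.41 (permutation p of 0.0029, adjusted 0.012) and 0.38 (0.016, adjusted 0.047) and a rho of 0.30 (0.031, adjusted 0.075) and 0.32 (0.019, adjusted 0.053).

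Other lists moved with the members as well. Of the 126 relations of a member with a list, 28 had an adjusted permutation p for r under 0.01, and 24 of these were with other lists than stomach or duodenum. SLC26A6 had an r of -0.67 and a rho of -0.64 with the nerve and glia markers (permutation p of 1e-05 and 3.00e-05, adjusted 0.00042 and 0.00054), with -0.14 at day 90, -0.77 at day 110 and -0.66 without the 2 farthest fetuses. With the enterocyte markers it had an r of 0.62 and a rho of 0.56 (6.00e-05 and 9.00e-05, adjusted 0.00094 and 0.0011 by permutation), with 0.14 at day 90, 0.71 at day 110 and 0.66 without the 2 farthest. SLC26A6 was thus higher where enterocyte markers were higher, mainly at day 110. The goblet cell markers had a negative r with GUCA2A (-0.49), GUCA2B (-0.47), SLC26A3 (-0.52), SLC26A6 (-0.45) and ATP1B1 (-0.53), with a rho of -0.49, -0.47, -0.55, -0.42 and -0.57, adjusted permutation p-values for r of 0.0019, 0.0023, 0.00084, 0.0068 and 0.00076, and an r between -0.59 and -0.45 without the 2 farthest. GUCA2B had an r of -0.54 and a rho of -0.58 with the fibroblast markers (8.00e-05 and 1e-05, adjusted 0.0010 and 0.00025 by permutation), and -0.65 without the 2 farthest. SLC12A2 had an r of 0.53 with the crypt markers, -0.52 with the enterocyte markers and 0.52 with the fibroblast markers (adjusted permutation p of 0.0020, 0.00090 and 0.0012), with a rho of 0.49, -0.59 and 0.51 and an r of 0.52, -0.56 and 0.53 without the 2 farthest. These other lists were not covariates in a fit, and their part in the changes with age was not tested.

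Since the list mean was above 0 in 16 fetuses of day 110 and at or below 0 in 15, the levels were also correlated within each set, with 18 relations in all. The limit of 0 was chosen after the values had been seen, so these correlations are a description and their p-values are not those of a planned test. Fetus 632, with the lowest list mean (-4.15), is in the lower set. In the 15 fetuses at or below 0, SLC26A3 had an r of -0.87 (permutation p of 9.00e-05, adjusted 0.0016) and a rho of -0.86 (permutation p of 0.00017, adjusted 0.0031), and r was -0.78 without the 2 fetuses farthest from the median. GUCA2A had an r of -0.83 there (adjusted permutation p of 0.011) and a rho of -0.64 (0.073), and r was -0.65 without the 2 farthest. In the 16 fetuses above 0, SLC12A2 had an r of 0.72 (adjusted permutation p of 0.011) and a rho of 0.63 (0.073), and r was 0.63 without the 2 farthest. The other 15 relations had adjusted permutation p-values for r over 0.05. Among them GUCA2B had an r of -0.37 at or below 0 and -0.31 above 0, SLC26A6 had -0.53 above 0, SLC26A3 had 0.18 above 0 and GUCA2A had -0.06 above 0.

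With the list mean as a covariate in the limma fit, a fit that was added after the data had been seen, GUCA2B decreased with age by 0.77 over genotypes (adjusted p of 1.64e-05) and SLC26A3 by 1.33 (0.0015). Both calls were kept at smaller sizes, and over 12 and 11 settings of the processing their adjusted p-values reached at most 1.64e-05 and 0.0015. SLC9A2 gave 1.25 (8.52e-08), compared with 1.44 without the covariate, and SLC26A6 gave 1.24 (8.31e-11), compared with 0.81. GUCA2A was -0.38 at an adjusted p of 0.089 and was no longer called, the highest of its adjusted p-values over 12 settings. The difference in SLC26A3 between MS and LW at day 110 became 2.15 at an adjusted p of 0.012. The sow calls of GUCA2A (0.57), GUCA2B (0.40), ATP1B1 (0.23) and SLC9A2 (0.47) remained. The list mean was above 0 only in fetuses of day 110, and the fit takes the same slope at both ages. The fit therefore cannot tell the markers and the age apart, and the part of these markers in the changes was not tested.

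**Figure D5:**
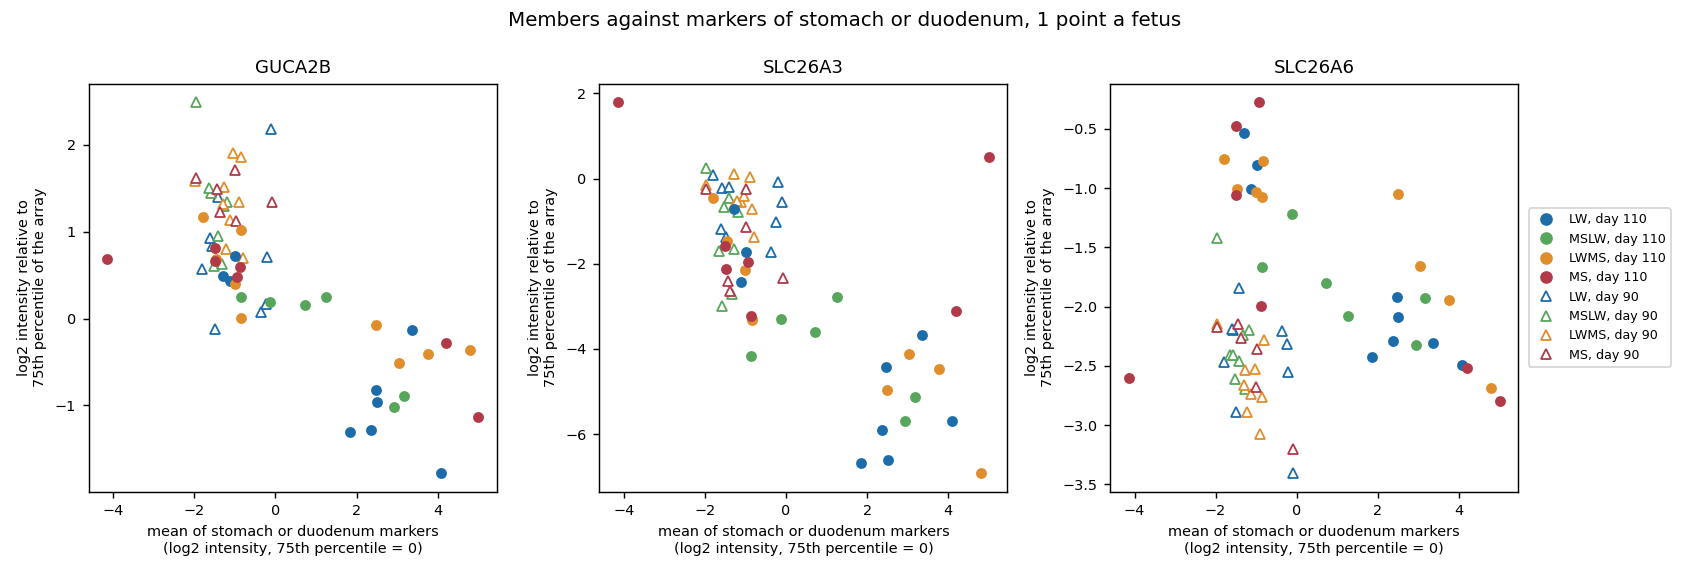
Level of GUCA2B, SLC26A3 and SLC26A6 in each fetus (log2 intensity against the 75th percentile of the array) against the mean of the stomach or duodenum markers on the same scale, with filled circles for day 110 and open triangles for day 90. Day 90 fetuses all lie at a list mean of 0 or less, and 16 of the 31 day 110 fetuses lie above 0.

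Within groups, members varied together in part. After group means were removed, 36 pairs of members were correlated over the 63 fetuses (62 for CFTR, with 1 missing value), with 100000 permutations, and 7 pairs had an adjusted p under 0.01. GUCA2A and GUCA2B had an r of 0.90 and a rho of 0.92 at the smallest p the permutations can give, 1e-05 (adjusted 0.00024 for r and 0.00036 for rho). The r was 0.92 without the 2 farthest fetuses, 0.94 at day 90 and 0.88 at day 110. GUCA2B and SLC26A3 had an r of 0.56. SLC12A2 and SLC26A6 had an r of -0.50, which was -0.09 at day 90 and -0.72 at day 110.

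For each member, the genes with the most similar pattern were found by Pearson r with its representative probe over the same fetuses after group means were removed, as a description without a test. Apart from each other, GUCA2A and GUCA2B were most like SLPI, a secreted protease inhibitor of mucosal surfaces, with an r of 0.74 and 0.77. SLPI was also the gene most like SLC26A3 (0.73), followed by the lysosomal sialidase NEU1 (0.73) and PPP1R3C (0.70). SLC12A2 was most like SOX9 (0.84) and MYB (0.81), transcription factors of progenitor cells, and SMC2 (0.78), a condensin subunit of dividing cells. SLC26A6 was most like COL7A1 (0.83), TFEB and ENPP3 (both 0.81), and SLC9A2 had no gene above an r of 0.64, which was reached by CYP3A29, MUC20 and KCTD5. ATP1B1 was most like RTN3 and PGD (both 0.80), SLC9A3 most like LARP4 (0.82), and CFTR most like ECE2 and BTNL2 (both 0.67).

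Among the 55 tested genes of epithelial transport, 13 rose with age, 3 fell and the rest were not called, in a background of 13.8% of all probes called, with a median change of 0.18 against -0.02 over all probes tested. KCNE1, a potassium channel subunit, rose by 2.71. CLCA1, a secreted goblet cell protein that regulates chloride conductance, rose by 1.51. SLC4A4, the sodium and bicarbonate cotransporter, rose by 1.63, and SLC5A1, the sodium and glucose cotransporter, by 1.41. The carbonic anhydrases went both ways. CA9 rose by 1.89 and CA2, which makes bicarbonate inside the cell, by 1.39, while CA4, the membrane enzyme, fell by 4.54 and CA12 by 0.57. BEST1 fell by 0.57.

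By the breed of the sow, 5 of these 55 genes were higher in fetuses of MS sows and 2 were lower, a share under the 16% of all probes called. Among the higher ones, CA2, CA4, SLC4A1 and KCNK5 differed by 0.69, 0.82, 0.31 and 0.28. The remaining higher gene belongs to the sodium pump group, and its value is not reported here. SLC4A7, a sodium and bicarbonate cotransporter, was lower by 1.46 and KCNE1 by 1.0. By the breed of the sire SLC4A7 and FXYD2 were lower with an MS sire by 1.72 and 0.72, and KCNK5 was higher by 0.42, which are 3 of 55 genes against 6.95% of all probes. Between purebreds, SLC4A7 was lower in MS by 2.27 at day 90 and by 4.09 at day 110, KCNK5 was higher at day 90 by 0.85 and CA4 was higher at day 110 by 2.01. These are 2 of 55 genes at each age, near the 3.58 and 4.99% of all probes called. No gene of the list was called for either interaction with age.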

How the data were processed

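RNA from the jejunum of 63 male fetuses was hybridised to arrays on 8 slides, and groups were read from the labels. As scanner output, the authors deposited each array's spots as written by Agilent Feature Extraction 10.10.1.1 (version from the submitters' processing notes), with linear spot intensity and detection flags, and a matrix of log2 values. Compared with the scanner values, those log2 values are quantile-normalised median intensities of 39446 probes. Background subtraction makes differences of dim probes uncertain, and normalization to each array hides a shift shared by most probes.

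Here each background-corrected intensity was put on the log2 scale, less the array's 75th percentile, without control and outlier spots, and replicate spots were averaged. Testing required a signal well above background in 75% or more of the arrays in some group. limma (version 3.58.1) fitted the 8 group means in R (version 4.3.3), tables were read with jsonlite (version 2.0.0) and the data.table package (version 1.17.8), and figures were drawn with matplotlib 3.10.9 in Python 3.11.15. Steps were tested on simulated data with independent fetuses and the same spread in every group. Shared litters and unequal spreads were thus not covered by that test. Tests are two-sided. Differences are day 110 minus day 90, MS minus LW, and MS sow or sire minus LW sow or sire.

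The members, the other transport genes and the marker lists were chosen with earlier results of these data known. All 9 members were named, each by its brightest tested probe. Of the other transport genes, up to 6 in each direction with the largest called change with age and up to 6 called per other comparison were named, by size. The values of 1 of them are not reported here. RefSeq accessions matched 15 of the 23 probes to the same symbol. The build behind the probe design is not given in the sources used here, so no coordinates are printed. The number of arrays limits the precision.

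Alternatives were the authors' values, quantile normalization, normexp (offset 50), centring on the median, dropping the filter or requiring all arrays, array weights, the slide as a block, purebred fetuses alone and no minimum difference. Another alternative left out the LW fetuses 484 and 469 together. Leaving out each fetus in turn, leaving out 632, 484 and 469, and the marker covariate were added after seeing the data.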

Additional observations from a re-analysis of the deposited data

Results flagged for a closer look

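Of 72 combinations of a member gene and a group, 12 had 1 fetus far from the others of its group by Dixon's test at 95%, which chance does in about 5 percent of such groups. The fetus numbers repeat. Fetus 450 (MSLW, day 90) stood apart for GUCA2A at 5.09, where the nearest fetus was at 3.76, for SLC12A2 at 2.57, next to 3.44, for SLC26A6 at -1.42, next to -2.20, and for SLC9A3 at -3.39, next to -4.29. Fetus 632 (MS, day 110) stood apart for CFTR at -3.15, next to -1.71, and for SLC9A3 at -5.68, next to -4.76.

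The other SLC9A3 values were those of fetus 484 (LW, day 90) at -2.14, next to -3.97, fetus 532 (MS, day 90) at -3.61, next to -4.59, fetus 559 (LW, day 110) at -5.68, next to -4.59, and fetus 851 (MSLW, day 110) at -2.30, next to -3.90. SLC12A2 in fetus 520 (LWMS, day 90) was 4.09, next to 3.65, and SLC9A2 in fetus 533 (LWMS, day 90) was -0.97, next to -2.32.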

How the results depend on the processing

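Over all alternatives, 1047 of 1164 values of single members kept their direction and their side of the threshold, 21 were no longer called and 28 were newly called. The other 68 turned their sign, 28 of them for SLC9A3, and all 68 were uncalled both before and after, with adjusted p-values of 0.24 or more. The main counts of member probes called were 13 for the F test, 13 for age over genotypes, 6 for age in LW, 0 in MS, 11 in LWMS and 4 in MSLW, 1 for the breeds at day 110, 11 for the sow and 0 for the sire. Those for the F test, for age over genotypes, in LW and in LWMS include the dimmer SLC26A3 probe, which adds no support. With the authors' values and with quantile normalization the main counts became 8 in MSLW and 6 for the sow. The breed comparison at day 110 gave 0 with normexp, 2 with median centring, 0 with purebred fetuses alone and 0 with the marker covariate. The filter on all arrays, which left 16 member probes, gave 7 for age, 3 in LW, 5 in LWMS and 0 for the breeds at day 110. Array weights gave 21 for the F test, 4 in MS, 7 in MSLW, 5 and 6 for the breeds at day 90 and day 110, and 2 for the sire. Age in LW gave 3 without fetuses 484 and 469, 2 with purebred fetuses alone and 3 with the covariate, which gave 2 in MS. Without 632, 484 and 469 there were 9 in MSLW and 0 for the breeds at day 110.

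Leaving out 1 fetus at a time gave 12 to 16 for the F test, 13 to 13 for age over genotypes, 3 to 6 in LW (lowest without 575), 0 to 1 in MS, 8 to 14 in LWMS, 2 to 7 in MSLW (without 560 and 632), 0 to 2 for the breeds at day 110, 7 to 12 for the sow (lowest without 827), and 0 for the breeds at day 90, the sire and the interactions. Over all probes, array weights called 3367 probes in place of 1928 in LW, 4290 for 1265 in MS, 3667 for 2198 in MSLW, 2828 for 1449 and 6365 for 2023 for the breeds at day 90 and day 110, and 13194 for 6468 and 6262 for 2816 for the sow and sire. Age over genotypes, at 5583, became 3167 with normexp, 3145 with the filter on all arrays and 11545 with no minimum difference, and 31 of 144 such counts moved by over 1.5 times. The causes were not tested, except that the filter on all arrays tests fewer probes. Median centring moved the median of all probes by 0.16 for sow by age, 0.15 for breed by age, 0.14 for age in LWMS, 0.12 for age in MS and for the breeds at day 110, and 0.10 for the sow. The slide as a block, the only block the sources allow, moved no count of member calls by over 1.5 times, though the SLC9A2 call for the sow was lost with it. No paired analysis was possible because the replicate numbers follow accession order and pair no fetuses. Signal over background limits SLC9A3 and the dimmer SLC26A3 probe.

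The values that turned their sign were the following. With the authors' values, SLC9A3 gave 0.056 for age in LW and 0.073 for age in MS, ATP1B1 gave -0.064 for age in MSLW and -0.0055 for the breeds at day 90 and SLC26A6 gave 0.019 for the breeds at day 90. There, SLC12A2 gave -0.032 for breed by age and -0.11 for the sow and SLC26A3 gave -0.065 for the sire. With normexp, SLC9A3 gave 0.21 for age in LW, 0.041 for age in MS, 0.12 for the breeds at day 90, -0.17 for breed by age and 0.083 for the sire, SLC26A6 gave 0.025 for the breeds at day 90 and SLC26A3 gave -0.059 for the sire. With quantile normalization, SLC9A3 gave 0.20 for age in MS and 0.18 for sow by age, ATP1B1 gave -0.051 for age in MSLW and SLC12A2 gave -0.0065 for breed by age and -0.11 for the sow. With median centring, SLC9A3 gave 0.076 for age in MS and 0.038 for sow by age, SLC12A2 gave 0.019 for the breeds at day 110 and CFTR gave 0.040 for sow by age. With the slide as a block, SLC9A2 gave -0.14 for breed by age and -0.19 for sow by age, SLC9A3 gave -0.017 for breed by age and 0.0031 for the sire and ATP1B1 gave 0.0063 for the sire. There, CFTR gave 0.038 for sow by age. With array weights, SLC9A3 gave 0.061 for age in LW, 0.33 for age in MS, 0.11 for the breeds at day 110, 0.025 for the sire and 0.15 for sow by age, SLC26A3 gave -0.47 for age in MS and -0.0012 for the sire and ATP1B1 gave -0.0080 for the breeds at day 90. There, SLC26A6 gave 0.092 for the breeds at day 90 and 0.070 for the sire and SLC12A2 gave -0.093 for breed by age and -0.13 for the sow. Without 484 and 469, SLC9A3 gave 0.12 for age in LW, 0.051 for the breeds at day 90, -0.16 for breed by age and 0.062 for the sire, GUCA2B gave -0.030 for breed by age and SLC12A2 gave -0.011 for the sow. Without 632, 484 and 469, SLC9A3 gave 0.12 for age in LW, 0.12 for age in MS, 0.051 for the breeds at day 90, 0.060 for the breeds at day 110 and 0.10 for the sire, SLC26A3 gave -0.41 for age in MS and GUCA2A gave -0.0015 for breed by age. There, GUCA2B gave -0.10 for breed by age, SLC12A2 gave -0.022 for the sow and CFTR gave 0.12 for sow by age. With the marker covariate, CFTR gave -0.063 for age in MS, -0.037 for age in MSLW and 0.031 for sow by age, SLC12A2 gave 0.027 for the breeds at day 110 and SLC26A6 gave -0.22 for the breeds at day 110, -0.17 for breed by age and -0.0052 for the sow. There, GUCA2B gave -0.20 for breed by age, SLC9A3 gave -0.014 for breed by age and SLC26A3 gave -0.10 for the sire.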
